A study of Mus musculus with 21 samples.

Results

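Epidermal kallikreins, a family of secreted serine proteases, and Spink5, the gene of their inhibitor LEKTI, were followed in keratinocytes of 3 mouse models of basal cell carcinoma (BCC). The members were taken by gene name: Klk5, Klk6, Klk7, Klk8, Klk9, Klk10, Klk11, Klk13, Klk14 and Spink5. All 10 were found among the 23713 genes of the count table. In PKI tumours Klk6 and Klk10 were higher and Spink5 was lower than in controls. In SmoM2 tumours Klk5 was lower. In Gnas-eKO tumours 0 of the 10 members passed the same test. The fall of Spink5 in PKI differed from its change in Gnas-eKO but was not shown to differ from that in SmoM2. The rises of Klk6 and Klk10 in PKI were not shown to differ from Gnas-eKO or SmoM2 with all libraries.

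Kallikreins are made as inactive precursors in the upper, granular layers of the epidermis. There KLK5 can activate itself and other kallikreins, and KLK5, KLK7 and KLK14 cut the corneodesmosomes, the junctions that hold dead surface cells together. LEKTI blocks these proteases, and loss of SPINK5 in humans causes Netherton syndrome, a disease of excessive shedding. KLK5 and KLK14 can also cleave the receptor PAR2, encoded by F2rl1, which signals inflammation and itch.

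RNA of tail keratinocytes was sequenced in bulk, in 3 control (Con) and 4 BCC libraries of each model, 21 in all. SmoM2 mice, named for an activated form of the Hedgehog transducer Smoothened, were sampled 29 days after tumour induction, with their controls, as batch A. Gnas-eKO mice, named for Gnas, the gene of the stimulatory G protein alpha subunit, were sampled at 42 days as batch B. PKI mice were sampled at 57 days as batch C, and the labels do not describe the construct. Neither the promoters that drive the alleles, nor the strain, the age of the mice or the full genotype of the controls are given in the labels. Model, day and batch coincide, so they cannot be told apart, and each BCC group was compared with the Con group of its own batch. The SmoM2 BCC animals carry a different name prefix in the file headers from the SmoM2 Con animals, which share theirs with Gnas-eKO, and what the prefix stands for is not given in the sources used here. Whatever it marks cannot be told apart from the tumour in SmoM2. The headers give each of the 21 libraries a name of its own that reads as an animal number, though no label states that each came from a separate mouse. In bulk RNA, fewer cells of a type and less RNA per cell cannot be told apart.

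Library totals ranged from 16645858 to 22251132 estimated counts. On a scale of CPM (counts relative to the scaled size of the library), Gnas stood at 172 to 178 in Gnas-eKO Con and at 51.2 to 115 in Gnas-eKO BCC, and Smo stood at 93.7 to 111 CPM in SmoM2 Con and at 283 to 312 CPM in SmoM2 BCC. The basal keratins Krt5 and Krt14, both keratinocyte markers, were at 3859 CPM or more in every library. Summed CPM of 6 fibroblast markers, none at 0 throughout a group, went from 17.2 to 39.8 in SmoM2 Con to 387 to 525 in SmoM2 BCC. The same sum went from 15.9 to 27.4 up to 94.3 to 579 in Gnas-eKO and from 15.8 to 43.5 up to 84.4 to 145 in PKI. Most of it was Dcn, the gene of decorin, whose mean went from 21 (Con) to 440 CPM (BCC) in SmoM2, with 14.8 and 247 CPM for Gnas-eKO and 18.5 and 88.4 CPM for PKI. Of the 6 markers, 2 (SmoM2), 1 (Gnas-eKO) and 3 (PKI) were called higher at an edgeR adjusted p under 0.05, with 0 lower. Over all genes tested, 16.2% were called higher and 13.5% lower in SmoM2, 18.7% higher and 15.8% lower in PKI, and 1.63% in either direction in Gnas-eKO, and the marker counts of this paragraph stand beside these shares. The sum of 9 leukocyte markers was 44.4 to 108 CPM in PKI Con and 233 to 450 CPM in PKI BCC, 68.9 to 85.8 and 46.4 to 96.8 CPM in SmoM2, and 88.3 to 113 and 73.6 to 218 CPM in Gnas-eKO. Of 8 leukocyte markers tested, 7 were called higher and 0 lower in PKI, 1 higher and 1 lower in SmoM2, and 0 in Gnas-eKO. The sum of 5 endothelial markers was low but higher in BCC without overlap, 1.29 to 2.22 and 4.48 to 6.03 CPM in SmoM2, 1.88 to 3.12 and 3.81 to 7.28 CPM in Gnas-eKO, and 1.68 to 4 and 4.8 to 6.27 CPM in PKI. Of those that passed the filter, 2 of 3 (SmoM2), 1 of 3 (Gnas-eKO) and 1 of 2 (PKI) were called higher. The sum of 3 muscle genes was 0.757 to 3.56 CPM over all libraries. Of 6 melanocyte markers, 5 were called lower in PKI, 2 in SmoM2 and 0 in Gnas-eKO, with 0 called higher, and their sum in PKI was 167 to 217 CPM in Con and 82 to 130 CPM in BCC. Of 6 sebaceous gland markers, 2 were called lower in PKI, 1 in SmoM2, near the share of all genes, and 0 in Gnas-eKO, with sums of 3472 to 6174 CPM in PKI Con and 1333 to 3624 CPM in PKI BCC. The part of these cells in the results below was not tested.

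The 9 kallikrein genes lie on the plus strand of chromosome 7 within 161 kb (GRCm38, chr7:43690418-43851181), in the order Klk14, Klk13, Klk11, Klk10, Klk9, Klk8, Klk7, Klk6 and Klk5. RefSeq gave 11 transcription starts for the 9 kallikreins on GRCm38.p6, and the 250 bases upstream of each were searched on both strands. The only Klk5 window (chr7:43842019-43842268) lies wholly inside the annotated gene, which starts at 43841971, so nothing upstream of that start was searched. Of the 5 motifs first chosen, AP-1 (TGANTCA), a cyclic AMP response element (TGACGTCA), GLI (GACCACCCA), a grainyhead-like site (AACCNGTT) and a TATA box (TATAAA), 0 of 9 genes held any. Among 32851 mouse promoters of that length, 6.75% held the AP-1 letters, 1.55% the cyclic AMP element, 0.225% the GLI site, 1.79% the grainyhead-like site and 12.4% the TATA box. These counts say only that the letters are not in the windows. A GC box (GGGCGG), added after the sequences had been read, was found in 3 of 9 genes, Klk6, Klk7 and Klk8, against 32.7% of all promoters. The sequence TTAAAA, also added then, was found in 4 of 9 genes, Klk6, Klk8, Klk10 and Klk11, against 17.7%. The shares count promoters and the members count genes, of which Klk6 and Klk11 had 2 windows each. Both added motifs were picked from these same sequences, so no excess can be read from their counts. The upstream sequences, cut where the first annotated exon begins, are shown for the pair of kallikreins that rose in PKI and for Klk7, the most abundant one, so that neighbours of the same cluster with different behaviour can be compared. Capitals mark GC boxes on either strand, CCGCCC being the reverse complement. The windows are chr7:43824294-43824498 for the first of the 2 RefSeq starts of Klk6, chr7:43780804-43781034 for Klk10 and chr7:43811044-43811293 for Klk7, all on the plus strand. The TTAAAA of Klk6 belongs to its second start, and that of Klk10 lies past its window, in the annotated exon.
Klk6: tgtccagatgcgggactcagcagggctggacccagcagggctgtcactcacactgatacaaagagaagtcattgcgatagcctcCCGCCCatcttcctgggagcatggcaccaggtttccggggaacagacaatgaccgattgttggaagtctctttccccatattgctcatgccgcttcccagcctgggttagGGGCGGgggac
Klk10: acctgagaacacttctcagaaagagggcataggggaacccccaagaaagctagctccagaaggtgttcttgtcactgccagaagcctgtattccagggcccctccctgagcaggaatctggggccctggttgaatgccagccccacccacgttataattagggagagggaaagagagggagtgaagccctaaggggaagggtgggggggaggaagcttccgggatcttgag
Klk7: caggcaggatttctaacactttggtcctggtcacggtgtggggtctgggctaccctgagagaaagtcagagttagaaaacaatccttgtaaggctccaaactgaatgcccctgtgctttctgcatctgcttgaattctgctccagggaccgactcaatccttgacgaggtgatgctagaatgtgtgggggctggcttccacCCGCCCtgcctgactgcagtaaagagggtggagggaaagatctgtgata

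In control keratinocytes the members spanned a wide range, and levels were compared between genes as CPM per kb of exon. Over the 9 Con libraries Klk7, the chymotrypsin-like protease, was highest at 234 ± 53.2 CPM per kb (SD, n = 9). It made up 53.5% ± 5.89 (SD, n = 9) of the summed level of the 9 kallikreins. Klk5 followed with 87.3 ± 28.7 and Spink5 with 86.2 ± 22 CPM per kb (SD, n = 9), levels whose ranges overlapped. Klk8 stood at 49.7, Klk11 at 29.8 and Klk10 at 23 CPM per kb in the mean. Klk6, Klk9 and Klk13 were low, with means of 7.08, 4.62 and 4.18 CPM per kb, and Klk14 was near the detection limit at 0.19 CPM per kb. Of the neighbours in this order, Klk7 and Klk5 did not overlap, nor did Klk13 and Klk14, and the ranges of all other neighbours did. In PKI BCC the order changed: Klk10, with 66.9 ± 13.9 CPM per kb (SD, n = 4), stood second after Klk7 with 184 ± 24.7, above Klk8, Spink5 and Klk5 with means of 46.5, 41.5 and 36 CPM per kb. The ranges of Klk10 and Klk8 overlapped there, 52.3 to 79.2 and 33.7 to 60.8 CPM per kb.

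**Figure D1:**
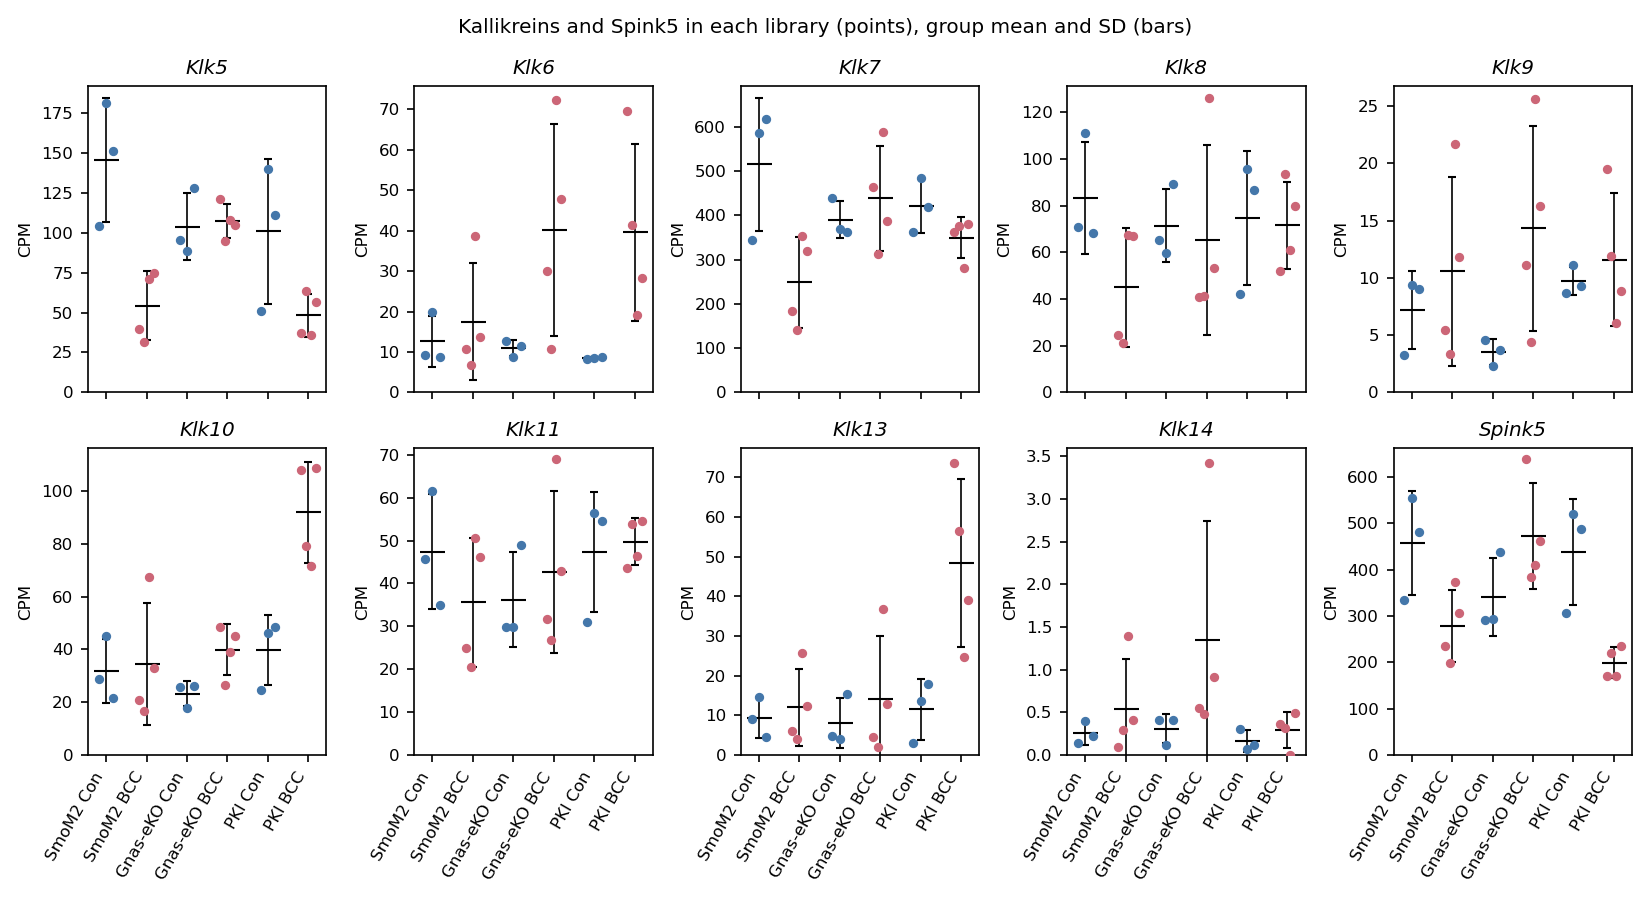
CPM (linear axes from 0) of each member in every library, grouped by model and by Con (blue) or BCC (red), with the group mean and SD as bars. In PKI BCC Spink5 lies between 170 and 234 CPM, below all PKI Con libraries, while Klk10 lies between 71.8 and 109 CPM, above them.

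Tests of BCC against Con used edgeR's quasi-likelihood test on the 7 libraries of a model, with Benjamini-Hochberg adjustment over all genes tested, and a member was called at an adjusted p under 0.05. In SmoM2 1 of 9 tested members was called, lower, beside 13.5% of all 16370 genes called lower, 16.2% called higher and 29.7% called in either direction. In Gnas-eKO 0 of 10 were called, beside 1.63% of 16409 genes in either direction. In PKI 2 of 9 tested members were called higher, beside 18.7% of 16362 genes, and 1 of 9 was called lower, beside 15.8%. These shares are near the background, so the counts are no result about the family as a whole. The 9 members tested in all 3 models had median log2 fold changes of -0.40 (SmoM2), 0.48 (Gnas-eKO) and 0.08 (PKI), beside 0.00, 0.02 and -0.00 for all genes tested. Klk14 failed the filter on low counts in SmoM2 and PKI and was not tested there, and it passed in Gnas-eKO only through its BCC libraries, so it is left out of these medians.

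Klk5, the trypsin-like protease that can start the activation cascade, was lower in SmoM2 tumours. In SmoM2 Con it read 104, 181 and 151 CPM, and in SmoM2 BCC 40, 31.5, 71.2 and 74.5 CPM. All 4 BCC libraries lay below all 3 controls, as did 19.2% of all genes tested in that model. The log2 fold change was -1.41 (SE 0.37), a 2.65-fold lower level, with an edgeR adjusted p of 0.0328. The call was lost without SmoM2 Con 2 (adjusted p 0.0909 by edgeR), without SmoM2 Con 3 (0.0999), without SmoM2 BCC 1 (0.0693) and without the filter on low counts (0.0673). In PKI Con the gene read 51.2, 140 and 111 CPM and in PKI BCC 37.3, 63.2, 35.8 and 56.3 CPM. PKI Con 1 lay among the BCC libraries, and the log2 fold change of -1.05 (SE 0.37) had an edgeR adjusted p of 0.0722. Without PKI Con 1 the log2 fold change was -1.38 and Klk5 was called (adjusted p 0.00782 by edgeR). In Gnas-eKO the levels overlapped, with 95.1, 88.3 and 128 CPM in Con and 121, 94.8, 108 and 105 CPM in BCC, a log2 fold change of 0.06 (SE 0.15).

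Klk7, which cuts corneodesmosin, was not called in any model. In SmoM2 it read 343, 586 and 617 CPM in Con and 184, 140, 352 and 319 CPM in BCC. SmoM2 BCC 3 lay just above the lowest control, and the log2 fold change was -1.04 (SE 0.39, adjusted p 0.102 by edgeR). DESeq2 called Klk7 in SmoM2 with an adjusted p of 0.0349, as 1 of 3 members (Klk5, Klk7 and Spink5) beside 32.4% of all genes. PKI gave 362, 484 and 419 CPM in Con and 361, 376, 280 and 380 CPM in BCC, a log2 fold change of -0.26 (SE 0.13, adjusted p 0.158 by edgeR). Gnas-eKO gave 438, 369 and 363 CPM in Con and 464, 312, 588 and 387 CPM in BCC, which overlapped. Klk14, the other strong trypsin-like kallikrein of human skin, was barely detected. Over the 21 libraries it read from 0 CPM, in PKI BCC 3, to 3.42 CPM, in Gnas-eKO BCC 3, and 3 counts, the upper limit that a count of 0 allows, correspond to 0.134 to 0.189 CPM in a library. In Gnas-eKO it read 0.405, 0.112 and 0.409 CPM in Con and 0.554, 0.482, 3.42 and 0.918 CPM in BCC. Gnas-eKO BCC 3 stood far above all other libraries of the model, and the other 3 BCC libraries lay above the highest control. The log2 fold change of 2.09 (SE 0.84, adjusted p 0.219 by edgeR) is a description, since Klk14 passed the filter there only through BCC libraries and failed it without BCC 1, BCC 3 or BCC 4. Limma on the authors' deposited signal gave 0.69 (SE 0.36, adjusted p 0.33).

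Spink5, the inhibitor, was lower in PKI tumours. In PKI Con it read 307, 520 and 488 CPM, and in PKI BCC 170, 220, 171 and 234 CPM. All 4 BCC libraries lay below all controls, as for 20.8% of genes in PKI, and the log2 fold change was -1.13 (SE 0.20), 2.19-fold lower, with an edgeR adjusted p of 0.00406. Spink5 stayed called when any single PKI library was left out, with log2 fold changes from -1.34 to -0.99. In SmoM2 Con it read 335, 555 and 482 CPM and in SmoM2 BCC 235, 198, 374 and 307 CPM. SmoM2 BCC 3 lay above the lowest control, and the log2 fold change of -0.70 (SE 0.26) had an edgeR adjusted p of 0.088, against 0.00519 with DESeq2. In Gnas-eKO the values were 292, 294 and 439 CPM in Con and 638, 383, 411 and 461 CPM in BCC. There the point estimate was positive, 0.48 (SE 0.23, adjusted p 0.293 by edgeR), and the groups overlapped.

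Klk6, a trypsin-like kallikrein also known as neurosin, was higher in PKI tumours. Its 3 PKI controls lay close together at 8.21, 8.46 and 8.71 CPM, and PKI BCC read 69.5, 41.3, 19.2 and 28.4 CPM. Every BCC library lay above every control, as for 22.4% of genes in PKI. The log2 fold change was 2.24 (SE 0.46), 4.72-fold, with an edgeR adjusted p of 0.00992, and the call held without any single library. In Gnas-eKO Con it read 12.7, 8.77 and 11.6 CPM and in Gnas-eKO BCC 30.1, 10.7, 72.3 and 47.9 CPM. Gnas-eKO BCC 2 lay within the controls, and the log2 fold change of 1.88 (SE 0.55) had an edgeR adjusted p of 0.116. Without that library Klk6 was called, at a log2 fold change of 2.19 (adjusted p 0.00501 by edgeR). In SmoM2 the values were 9.23, 19.9 and 8.76 CPM in Con and 10.8, 6.71, 38.7 and 13.7 CPM in BCC, which overlapped (log2 fold change 0.49, SE 0.69).

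Klk10, a kallikrein-like protein with little known protease activity, was also higher in PKI tumours. Its values were 24.6, 46.2 and 48.7 CPM in PKI Con and 108, 79.3, 71.8 and 109 CPM in PKI BCC, without overlap. The log2 fold change was 1.22 (SE 0.27), 2.33-fold, with an edgeR adjusted p of 0.0113. It was called without any single library, at log2 fold changes from 0.96 to 1.39, but a block on the replicate number gave an edgeR adjusted p of 0.15. In Gnas-eKO the groups did not overlap either, with 25.9, 17.6 and 26.2 CPM in Con and 48.5, 26.5, 39.2 and 45.2 CPM in BCC. Gnas-eKO BCC 2 lay only just above the highest control, and 9.97% of genes were higher in BCC without overlap in that model. There the log2 fold change was 0.79 (SE 0.23, adjusted p 0.119 by edgeR). SmoM2 gave 28.9, 45 and 21.4 CPM in Con and 20.8, 16.8, 67.5 and 32.9 CPM in BCC, which overlapped.

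Klk13, which codes for another secreted kallikrein, read 2.99, 13.6 and 17.8 CPM in PKI Con and 73.5, 56.4, 24.8 and 39 CPM in PKI BCC. The groups did not overlap, and the log2 fold change of 2.10 (SE 0.66) had an edgeR adjusted p of 0.0537, against 0.00832 with DESeq2, which called 5 of the members in PKI beside 37.3% of genes. Without PKI Con 1 it was 1.63 and was called (adjusted p 0.0491 by edgeR), and without PKI BCC 3 it was 2.32 and was called (0.0498). Klk13 ranged from 4.38 to 14.7 CPM in SmoM2 Con, from 4.1 to 25.7 CPM in SmoM2 BCC, from 4.02 to 15.3 CPM in Gnas-eKO Con and from 1.88 to 36.8 CPM in Gnas-eKO BCC. Klk9 read 4.56, 2.35 and 3.68 CPM in Gnas-eKO Con and 11.1, 4.4, 25.6 and 16.3 CPM in Gnas-eKO BCC. Only Gnas-eKO BCC 2 lay within its controls, and the log2 fold change of 2.03 (SE 0.55) had an edgeR adjusted p of 0.0986, against 0.00207 with DESeq2 and 0.00703 with edgeR without that library. In PKI and SmoM2 the Klk9 groups overlapped, with log2 fold changes of 0.26 (SE 0.36) and 0.58 (SE 0.72).

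Klk8, also called neuropsin, was not called in any model. In SmoM2 it read 70.8, 111 and 68.3 CPM in Con and 24.7, 21.2, 67.4 and 67 CPM in BCC. The BCC libraries lay below the controls, 2 of them by less than 2 CPM, and the log2 fold change of -0.87 (SE 0.51) had an edgeR adjusted p of 0.265. Gnas-eKO BCC read 41.1, 41.2, 126 and 53.4 CPM against 59.9 to 89.3 CPM in Con, and PKI BCC 51.9 to 93.6 CPM against 42.2 to 95.7 CPM. Klk11, a trypsin-like kallikrein, varied from 20.6 to 69.1 CPM over all libraries, and its groups overlapped in each model. The log2 fold change of Klk11 was -0.40 (SE 0.38) in SmoM2, against 0.24 (SE 0.33) in Gnas-eKO and 0.08 (SE 0.20) in PKI.

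**Figure D2:**
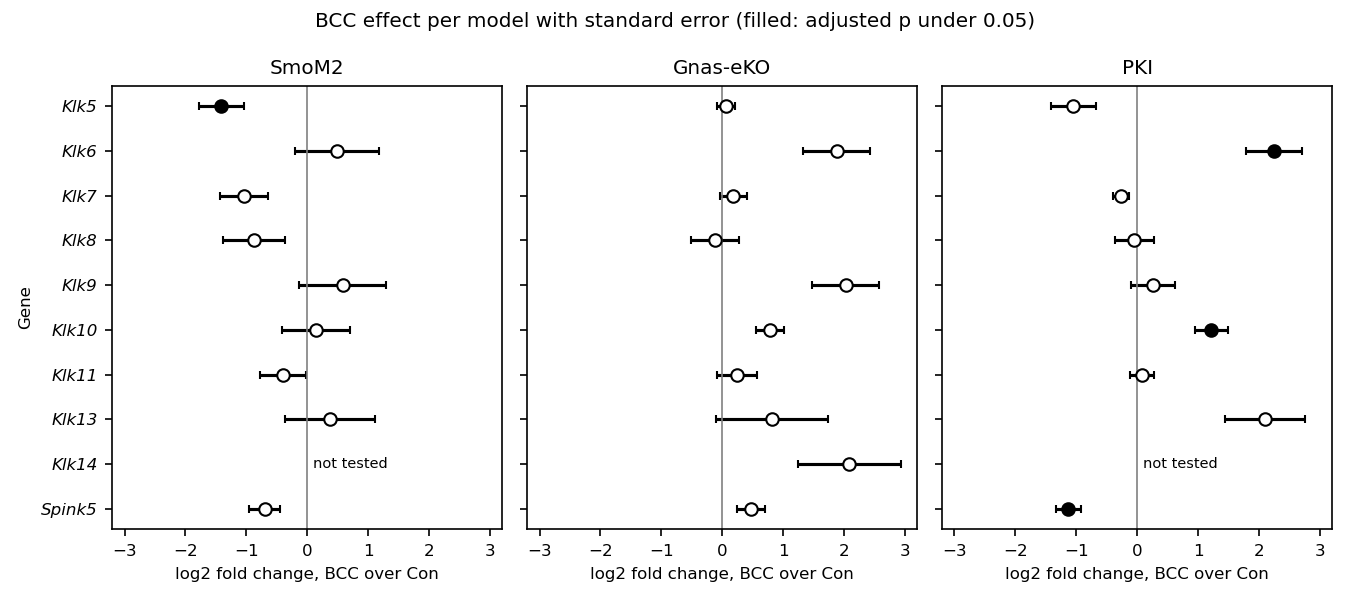
Log2 fold change of BCC over Con with its SE for each member in each model, from edgeR, with filled symbols at an adjusted p under 0.05. Filled symbols are Klk5 at -1.41 in SmoM2 and Klk6 at 2.24, Klk10 at 1.22 and Spink5 at -1.13 in PKI.

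The 0 calls in Gnas-eKO depended on the test and on 1 library. With Klk14 left out, edgeR gave 3 of 9 members, Klk6, Klk9 and Klk10, an unadjusted p under 0.05, all higher, beside 19.6% of all genes. DESeq2 called 3 of 10, Klk6, Klk9 and Klk10, beside 9.37% of genes, and edgeR without Gnas-eKO BCC 2 called the same genes, beside 11.8% of genes. In that library the summed level of 6 wound keratins and alarmins (Krt6a, Krt6b, Krt16, Krt17, S100a8 and S100a9) was 2763 CPM, within the 2095 to 2854 CPM of the controls, against 7072 to 10099 CPM in the other BCC libraries. By contrast, its sum of fibroblast markers, 579 CPM, was the highest of the BCC group, where the other libraries had 94.3 to 286 CPM. Gnas stood at 89.5 CPM there, between 115 CPM in BCC 1 and 51.2 CPM in BCC 3. Gnas-eKO BCC 3 had the lowest Gnas and the highest Klk6, Klk7, Klk8, Klk9, Klk11, Klk13 and Klk14 of its group. Klk5, Klk10 and Spink5 were highest in Gnas-eKO BCC 1, at 121, 48.5 and 638 CPM, the library with the highest Gnas of the group. The part of Gnas in these values, and that of the wound keratins, was not tested.

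The change of Spink5 differed between PKI and Gnas-eKO. The BCC effect in PKI minus that in Gnas-eKO was -1.61 (SE 0.32) on the log2 scale, with an edgeR adjusted p of 0.00936 over 17254 genes. It was called without any single library, at differences from -1.83 to -1.44. This was the call for 1 of 10 members, lower, beside 4.57% of all genes called lower and 9.06% called in either direction. Klk5 differed by -1.11 (SE 0.41, adjusted p 0.111 by edgeR) and Klk9 by -1.76 (SE 0.70, adjusted p 0.135 by edgeR) in this contrast. Klk6 differed by 0.37 (SE 0.75, adjusted p 0.803 by edgeR) and Klk10 by 0.43 (SE 0.37, adjusted p 0.502 by edgeR). Of Gnas-eKO minus SmoM2, 0 of 10 members were called, beside 0.175% of genes, and 3 had an unadjusted p under 0.05 in edgeR, beside 8.75%. Among these, Klk5 differed by 1.47 (SE 0.39) with an edgeR adjusted p of 0.219 and a DESeq2 adjusted p of 0.0222, the only member DESeq2 called in this contrast, beside 1.24% of genes. Of PKI minus SmoM2, 0 of 9 tested members were called, beside 24.9% of genes, and 0 had an unadjusted p under 0.05 in edgeR, beside 37.4%, or a DESeq2 call, beside 28.3%. Without SmoM2 BCC 3, Klk6 (2.50, adjusted p 0.0224 by edgeR) and Klk10 (1.63, adjusted p 0.0329 by edgeR) were called in that contrast, beside 24% of genes. The rise of Klk6 and Klk10 in PKI was therefore not shown to differ from SmoM2 with all libraries. Nor was the fall of Spink5 (-0.43, SE 0.35, adjusted p 0.408 by edgeR).

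Spink5 lies apart from the cluster, on chromosome 18 (43963235 to 44022501, plus strand). Along the cluster, neighbouring genes had log2 fold changes of different size and sign. Klk6 lies between Klk7 and Klk5, and in PKI its log2 fold change was 2.24 while those of its neighbours were -0.26 and -1.05. Klk10, at 1.22 in PKI, lies between Klk11 at 0.08 and Klk9 at 0.26. An antisense gene, 2310002F09Rik, runs on the minus strand (43695209 to 43797958) across exons of Klk14 and Klk8 and introns of Klk13, Klk11, Klk10 and Klk9. It read 0.497 to 3.79 CPM over the 21 libraries and was lower in BCC in SmoM2 (-1.63, SE 0.39, adjusted p 0.0115 by edgeR) and PKI (-1.32, SE 0.30, adjusted p 0.00956 by edgeR). The SmoM2 call of the antisense gene was lost without SmoM2 Con 2 (-1.26, adjusted p 0.0632 by edgeR). In Gnas-eKO it was not called (-0.78, adjusted p 0.195 by edgeR). Whether counting used the strand is not given in the sources used here, so its reads and those of Klk14 and Klk8 where exons overlap cannot be told apart. Of 17 other kallikrein genes listed for the locus, 3 were in the table and only Klk12 was tested. Klk12 read 0.0966 to 2.3 CPM and was not called in any model.

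**Figure D3:**
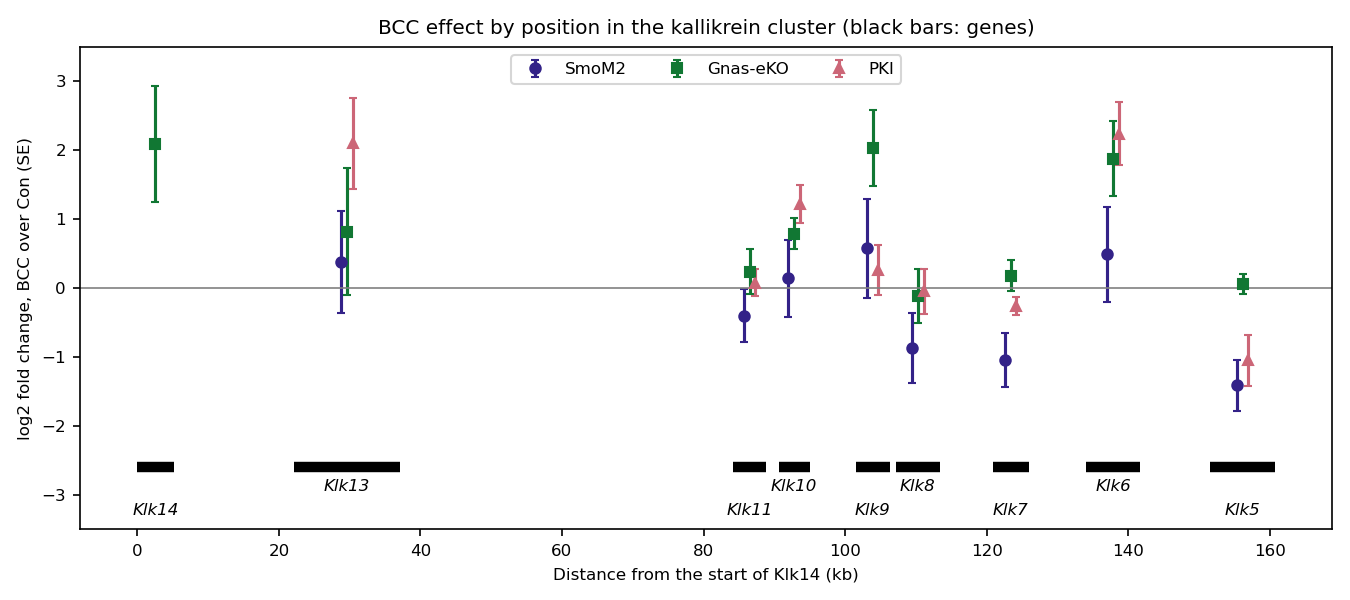
Log2 fold change of BCC over Con (SE) of each tested kallikrein against distance in kb from the start of Klk14, with 1 symbol per model and the genes as black bars. Neighbours differ in direction: in PKI Klk6 lies at 2.24 and Klk5 beside it at -1.05.

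Transcripts of proteases and inhibitor were set against each other as ratios of levels per kb within each library, which carry no test. Protein levels and protease activity are not given by these RNA data. Klk5 and Klk7 together stood at 3.58, 3.31 and 2.98 times the Spink5 level in PKI Con and at 6.16, 5.35, 4.89 and 4.97 times in PKI BCC. The PKI groups did not overlap. In SmoM2 the ratio lay the other way, 3.7 to 4.36 in Con and 2.36 to 3.49 in BCC, again without overlap. In Gnas-eKO it was 3.13 to 4.96 in Con and 2.52 to 4.56 in BCC, and the groups overlapped. Of the genes in this ratio, edgeR called only Klk5 in SmoM2 and only Spink5 in PKI. For PKI minus SmoM2 edgeR called none of them, with adjusted p of 0.683 for Klk5, 0.207 for Klk7 and 0.408 for Spink5. All 9 kallikreins summed to 309 to 514 CPM per kb in PKI Con and to 326 to 461 in PKI BCC, so the total overlapped while the sum per Spink5 went from 4.44 to 4.81 up to 9.12 to 12.7. The sum per Spink5 overlapped in SmoM2, with 5.28 to 5.33 in Con and 3.54 to 5.38 in BCC, and in Gnas-eKO, with 4.52 to 6.52 and 3.37 to 7.36. In SmoM2 the sum was 370 to 618 CPM per kb in Con and 146 to 419 in BCC. In Gnas-eKO it was 342 to 415 and 311 to 632.

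Klk6 and Klk10 stood higher relative to Klk5 in BCC than in Con, again as untested ratios. The Klk6 to Klk5 ratio of levels per kb was 0.0512 to 0.097 in SmoM2 Con and 0.163 to 0.479 in SmoM2 BCC. In PKI it was 0.0534 to 0.141 in Con and 0.445 to 1.65 in BCC. In Gnas-eKO it was 0.0802 to 0.118 in Con and 0.22, 0.0998, 0.59 and 0.404 in BCC, where BCC 2 lay within the controls. The Klk10 to Klk5 ratio was higher in BCC without overlap in all 3 models, with 0.138 to 0.27 and 0.43 to 0.922 in SmoM2, 0.194 to 0.265 and 0.272 to 0.421 in Gnas-eKO, and 0.322 to 0.467 and 1.22 to 2.82 in PKI. The Klk7 to Klk5 ratio was also higher in SmoM2 BCC without overlap, 2.28 to 2.88 in Con and 3.02 to 3.49 in BCC. It overlapped in PKI, with 2.44 to 4.98 in Con and 4.2 to 6.82 in BCC, and in Gnas-eKO, with 2 to 3.25 and 2.32 to 3.83. How often ratios of other genes part the groups was not computed. All these ratios rest on the values already given for each gene, and in SmoM2 the lower Klk5 was the part that passed a test.

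**Figure D4:**
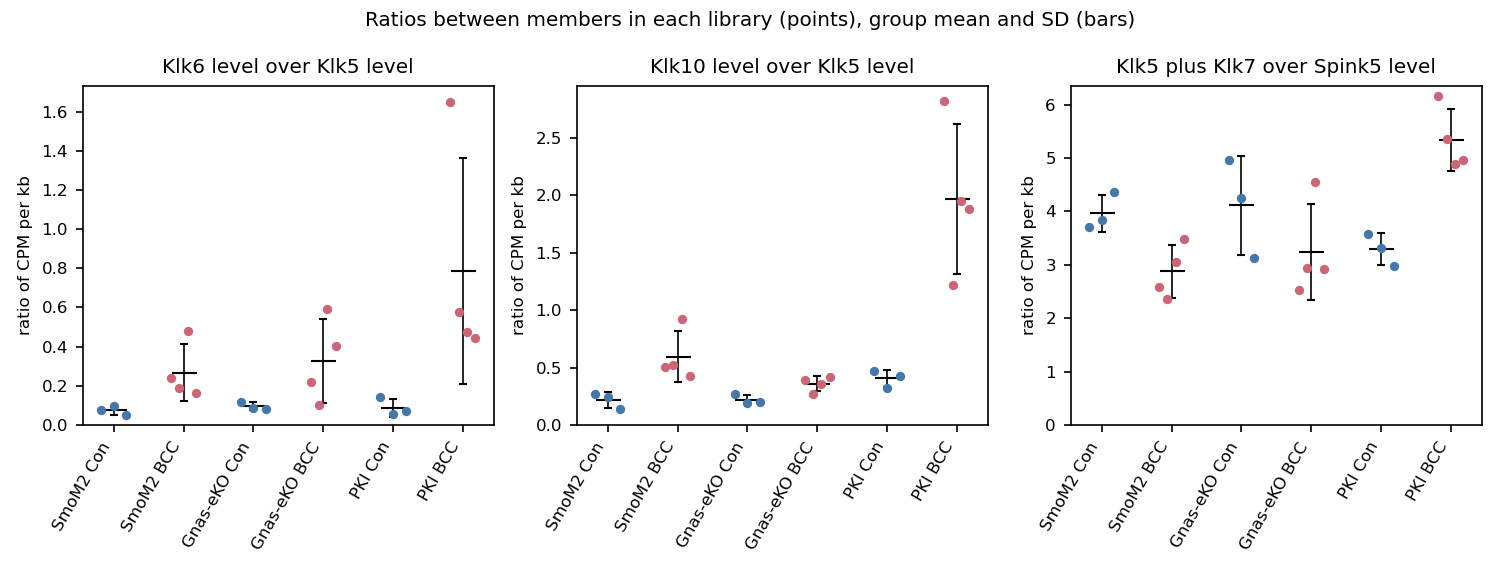
Ratios of CPM per kb in each library (linear axes from 0) for Klk6 over Klk5, Klk10 over Klk5, and Klk5 plus Klk7 over Spink5, with group mean and SD. The last ratio lies at 4.89 or more in all PKI BCC libraries and at 3.58 or less in all PKI Con libraries, and is lower in SmoM2 BCC than in SmoM2 Con.

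Transcripts of the junctions that kallikreins act on, and of their intracellular plaque, were read from a list of 6 genes. Of 6 corneodesmosome and desmosome genes, 5 were called lower in SmoM2 and 3 in PKI, with 0 calls in Gnas-eKO and 0 called higher in any model. Over all genes 13.5% were called lower in SmoM2, 15.8% in PKI, and 1.63% in either direction in Gnas-eKO. The list's median log2 fold changes were -0.81, -0.71 and -0.37. In SmoM2 the called genes ran from desmocollin Dsc1 (-1.37, SE 0.18, adjusted p 0.000874 by edgeR) to plakoglobin, Jup (-0.63, SE 0.08, 0.000441). In PKI they ran from Cdsn to plakophilin, Pkp1 (-0.36, SE 0.10, adjusted p 0.0237 by edgeR). Corneodesmosin Cdsn fell in PKI (-1.27, SE 0.12, adjusted p 0.000189 by edgeR). Its level was 327 ± 40.1 CPM (SD, n = 3) in Con and 135 ± 19.4 CPM (SD, n = 4) in BCC.

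Of a list of 10 genes of other epidermal proteases and of PAR2, 3 were called higher and 2 lower in SmoM2, 0 in Gnas-eKO, and 5 higher and 2 lower in PKI. Over all genes the shares were 16.2% higher and 13.5% lower in SmoM2 and 18.7% higher and 15.8% lower in PKI. Casp14, a caspase of terminal differentiation, fell most in SmoM2 (-1.10, SE 0.27, adjusted p 0.0231 by edgeR), and Asprv1, a filaggrin-processing protease, in PKI (-0.60, SE 0.17, 0.0252). Furin, a proprotein convertase, rose most in both, by 0.48 (SE 0.10, adjusted p 0.00516 by edgeR) in SmoM2 and 0.58 (SE 0.11, 0.00445) in PKI. A further pair of genes was picked for its role after the values were seen. F2rl1, the PAR2 gene, rose in SmoM2 (0.33, SE 0.07, adjusted p 0.00886 by edgeR) and in PKI (0.52, SE 0.11, 0.0053). St14, the gene of matriptase, an activator of kallikrein precursors, rose in SmoM2 (0.27, SE 0.09, adjusted p 0.0443 by edgeR) and in PKI (0.50, SE 0.12, 0.0125). The remaining called genes of the list went both ways. Ctsd fell in SmoM2 (-0.37, SE 0.12, adjusted p 0.0384 by edgeR) and Prss8 fell in PKI (-0.59, SE 0.12, 0.005). Ctsl (0.39, SE 0.12, adjusted p 0.0293 by edgeR) and Tmprss4 (0.42, SE 0.14, 0.0436) rose in PKI. Of 7 tested other protease inhibitors, 0 were called in SmoM2 and Gnas-eKO, and 2 higher and 1 lower in PKI. All of these are named here, and Spint1 rose in PKI (0.51, SE 0.12, adjusted p 0.0102 by edgeR). There Spink12, a relative of Spink5, rose (2.05, SE 0.61, adjusted p 0.0337 by edgeR) and the cystatin Cst6 fell (-0.42, SE 0.14, 0.0426). Spink12 was low, with means of 1.55 CPM in PKI Con and 6.33 CPM in PKI BCC, against 438 and 199 CPM for Spink5.

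Markers of the granular layer, where most kallikreins are made, and of basal keratinocytes are given here beside Klk5 and Spink5. Of 17 differentiation genes, 13 were called lower and 0 higher in SmoM2, 1 lower and 0 higher in Gnas-eKO, and 7 lower and 1 higher in PKI, with list medians of -1.15, -0.26 and -0.52, against the same shares over all genes (13.5% lower in SmoM2, 15.8% lower in PKI). Their summed level was 42566 to 62589 CPM in SmoM2 Con and 21147 to 34963 CPM in SmoM2 BCC, 39840 to 49793 and 20097 to 33328 CPM in Gnas-eKO, and 34735 to 58062 and 16608 to 48959 CPM in PKI. Most of the sum was keratin, with SmoM2 Con means of 21680 CPM for Krt10 and 17161 CPM for Krt2. In PKI the mean of Krt1 went from 4164 (Con) to 14426 CPM (BCC). Lor went from 734 to 143 CPM there, and Hrnr from 490 to 73.6 CPM. Of 6 basal keratinocyte genes, 5 were called lower and 1 higher in SmoM2, 0 in Gnas-eKO, and 3 lower and 0 higher in PKI. Those called ran from Krt14 (-1.20, SE 0.11, adjusted p 3.65e-05 by edgeR) to Trp63 (0.48, SE 0.09, 0.00356) in SmoM2, and from Col17a1 (-1.13, SE 0.12, adjusted p 0.000269 by edgeR) to Krt5 (-0.24, SE 0.07, 0.034) in PKI. Their summed level was 29475 to 38299 CPM in SmoM2 Con and 21754 to 23713 CPM in SmoM2 BCC, 35124 to 37866 and 14742 to 31755 CPM in Gnas-eKO, and 32834 to 37567 and 28458 to 30898 CPM in PKI. Among the granular genes, those called ran from the filaggrin relative Flg2 (-2.47, SE 0.60, adjusted p 0.0268 by edgeR) to Grhl1 (-0.58, SE 0.17, 0.0314) in SmoM2. In PKI they ran from hornerin, Hrnr (-2.72, SE 0.39, adjusted p 0.00302 by edgeR), to the suprabasal keratin Krt1, which rose (1.80, SE 0.53, 0.0413). The gene called in Gnas-eKO was the transglutaminase Tgm3 (-1.21, SE 0.23, adjusted p 0.0475 by edgeR). The 6 wound keratins and alarmins were called higher 6 of 6 times in PKI, beside 18.7% of all genes called higher, 3 of 6 in SmoM2, beside 16.2%, and 0 of 6 in Gnas-eKO. In PKI the called genes ran from the keratin Krt17 (1.47, SE 0.30, adjusted p 0.0086 by edgeR) to the alarmin S100a9 (8.88, SE 1.12, 0.00252). In SmoM2 they ran from Krt17 (2.10, SE 0.12, adjusted p 3.56e-06 by edgeR) to S100a8 (3.82, SE 0.82, 0.0199). Their summed level in PKI BCC was 27126, 21576, 11939 and 12455 CPM against 1773 to 1896 CPM in Con. PKI BCC 1 and 2, with the higher sums, also had the higher Klk6 and Klk13, whereas Klk10 was highest in BCC 4 and BCC 1. Of 8 hair follicle genes, 2 were called higher and 0 lower in SmoM2, 0 in Gnas-eKO, and 6 higher and 1 lower in PKI, beside the same 16.2% (SmoM2) and 18.7% (PKI) of all genes called higher and 15.8% called lower in PKI. They were Lhx2 (2.64, SE 0.10, adjusted p 2.81e-07 by edgeR) and Sox9 (1.19, SE 0.21, 0.00497) in SmoM2, and ran from Krt15 (-0.94, SE 0.10, adjusted p 0.000242 by edgeR) to the inner root sheath keratin Krt27 (4.84, SE 0.91, 0.0099) in PKI. The part of these marker lists in the kallikrein values was not tested.

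Genes outside the 10 members were ranked beside each member by Pearson's r of log2 CPM over the 21 libraries, a description in which the points share model, batch and tumour state. Among these outside genes, Klk7 was most like Dnase1l2 (r = 0.885) and involucrin, Ivl (0.884). Klk8 was most like Casp14 (0.886) and Lgals7 (0.882), and Klk5 like Arhgap40 (0.883) and Septin5 (0.862). Klk6 was most like Gm5526 (0.908) and Trib1 (0.907), and Klk9 like Sdcbp2 (0.901) and the growth factor gene Ereg (0.894). Klk10 was most like Bdh1 (0.907) and Calhm5 (0.896), Klk11 like Uba3 (0.83), and Klk13 like Blmh (0.948), which encodes bleomycin hydrolase, and Ebp (0.921). Spink5 was most like Eps8l1 (0.934) and Pcsk6 (0.893). Among the members themselves, Klk5 and Spink5 were closest (0.905), then Klk8 and Klk11 (0.896), Klk10 and Klk13 (0.83), Klk7 and Klk8 (0.783) and Klk6 and Klk9 (0.755), each pair holding the closest member of at least 1 of its genes. Klk14 was too low for this measure.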

How the data were processed

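The authors deposited estimated counts per gene, not normalized (32.3% of values are not whole), and a second table of normalized signal, which the authors' file name calls TMM and which was used for 1 alternative. Per the submitters' processing notes, bcl2fastq 2.20, cutadapt 1.18, STAR 2.7.0f and Partek were used with mm10. The counting tool, annotation and strand setting are not given in the sources used here. The labels' protocols name a stranded polyA ligation preparation from scraped, trypsin-treated tail epidermis.

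Estimated counts were rounded and tested per model in edgeR 4.0.16 (R 4.3.3) with filterByExpr, TMM, robust glmQLFit and glmQLFTest. The SE is the log2 fold change over the root of F. Differences between models were interaction contrasts over 14 libraries. Printed CPM use TMM-scaled library sizes over 21 libraries, per kb of union exon length from GENCODE M21. Alternatives were DESeq2 1.42.0, its size factors in edgeR, no filter, a fit of 21 libraries, a replicate block, limma 3.58.1 on log2(signal + 1), and leaving out each library. Likeness was computed over genes whose log2 CPM averaged 1.0 or more. Scripts were tested on simulated data. Members, gene lists and tests were chosen with earlier results of these data known. All 10 members are named. Of the other lists, the called genes with the highest and lowest log2 fold change in a model are named, except for the fibroblast, leukocyte, endothelial, melanocyte, sebaceous gland and muscle lists, which are given by counts or sums, and the 2 genes most like each member. Other exceptions are stated, and 1 gene like Klk11 is not reported here.

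Same-numbered Con and BCC libraries deviated together with correlations of -0.13 to -0.09 in SmoM2, 0.04 to 0.18 in Gnas-eKO and -0.06 to 0.28 in PKI, so the numbers were not taken as pairs. Limits given for a count of 0 cover counting error only.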

Additional observations from a re-analysis of the deposited data

Results flagged for a closer look

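Klk8 in Gnas-eKO BCC 3 read 126 CPM, where the other 3 libraries of its group read 41.1 to 53.4 CPM, and its gap to them was 0.854 of the group's range. Klk14 in the same library read 3.42 CPM, where the others read 0.482 to 0.918 CPM, a gap of 0.852 of the range. Both lie past Dixon's 95% critical value for 4 samples. Groups of 4 were checked 30 times, and chance alone picks about 1 in 20. The BCC effect on Spink5 differed between PKI and Gnas-eKO by -1.61 on the log2 scale, as tested by the interaction contrast.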

How the results depend on the processing

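The number of members called moved with the test, as did the share of all genes called, given in percent. In SmoM2 it was 1 (29.7%) and became 3 with DESeq2 (32.4%) and in the fit of 21 libraries (22.7%), Klk5, Klk7 and Spink5 in both, 0 without the filter (20%), and 0 to 2 when a library was left out: 0 without Con 2 (21.5%), Con 3 (25.1%) or BCC 1 (24.4%), and 2 without BCC 3 (26.6%). In Gnas-eKO 0 (1.63%) became 3 with DESeq2 (9.37%), 1 (Klk9) in the fit of 21 libraries (15%), and 0 to 3 when a library was left out, with 3 without BCC 2 (11.8%). In PKI 3 (34.5%) became 5 with DESeq2 (37.3%), adding Klk5 and Klk13, 4 in the fit of 21 libraries (29.3%, adding Klk5), 4 with limma on the authors' signal (35.3%, adding Klk13), and 3 to 5 when a library was left out, with 5 without Con 1 (27.6%). For Gnas-eKO minus SmoM2, 0 (0.175%) became 1 with DESeq2 (1.24%). For PKI minus Gnas-eKO, 1 (9.06%) became 2 with DESeq2 (13.9%, adding Klk5) and 1 to 2 when a library was left out, with 2 without Gnas-eKO BCC 2 (12%) or PKI Con 1 (5.75%). For PKI minus SmoM2 (24.9%) leaving out a library gave 0 to 2, with 2 without SmoM2 BCC 3 (24%). The causes were not tested.

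With the replicate number as a block, a pairing the data do not bear out, the counts stayed at 1 (SmoM2), 0 (Gnas-eKO) and 3 (PKI). In PKI Klk5 was called and Klk10 was lost (1.16, edgeR adjusted p 0.15). The signs of uncalled members turned in SmoM2 for Klk10 (-0.08 with the block, -0.01 with limma on the authors' signal) and Klk13 (-0.01 with the block).

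Leaving out a library turned the sign of uncalled members, over these ranges. In SmoM2 they were -0.26 to 0.97 for Klk6, -0.04 to 0.88 for Klk9, -0.41 to 0.47 for Klk10 and -0.31 to 0.86 for Klk13. In Gnas-eKO they were -0.05 to 0.23 for Klk5, -0.65 to 0.06 for Klk8, -0.09 to 0.52 for Klk11 and -0.29 to 1.69 for Klk13. In PKI they were -0.35 to 0.16 for Klk8, -0.12 to 0.48 for Klk9 and -0.16 to 0.23 for Klk11. Among the differences, Gnas-eKO minus SmoM2 ran from -0.67 to 1.32 for Klk13 and -0.07 to 2.02 for Klk14, and PKI minus SmoM2 from -0.68 to 0.31 for Klk9. PKI minus Gnas-eKO ran from -0.05 to 0.80 for Klk6, -0.22 to 0.59 for Klk8 and -0.43 to 0.17 for Klk11. Depth limits Klk14, with few counts in each library.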
